A study of Mus musculus with 2 samples.

Results

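The subunits of AP-1, a family of transcription factors that bind DNA as pairs, were described in the parental Ba/F3 cells and in BaF/3 (#BEB1), a clone derived from them. The 10 genes are Fos, Fosb, Fosl1 and Fosl2 of the Fos subunits, Jun, Junb and Jund of the Jun subunits, and the related factors Batf, Atf3 and Maff. They were found on the array by gene name, in a family chosen with earlier results of these data known, and are 10 of the 31709 genes with a probe on the array. They are read by 11 probes at 29 spots, and 9 of them gave a signal well above background on both arrays. Ba/F3 is a mouse pro-B cell line that depends on interleukin-3. BaF/3 (#BEB1) is a single clone, obtained by infecting Ba/F3 cells with a retroviral cDNA library of the rat oligodendrocyte precursor line CG4 and sorting repeatedly for cells that bound an Ecrg4–Fc fusion protein. Both were maintained in foetal calf serum and recombinant mouse interleukin-3, and the sources used here give no further treatment. For each cell line, cyanine 3-labelled cRNA was read on 1 Agilent array of the whole mouse genome. There is therefore no replicate check, no p-value is given, and a count of genes at least 2-fold apart is a count of sizes.

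AP-1 is a pair of proteins joined through a leucine zipper, with a basic stretch beside it that reads the DNA. Jun proteins pair with each other or with Fos proteins, whereas Fos proteins need a partner of another kind, commonly a Jun protein. Fos, Fosb, Jun and Junb are classical early response genes, whose transcription starts within minutes of a growth factor or cytokine signal and needs no new protein synthesis. In blood cells AP-1 takes part in the transcription of cytokine genes. RNA levels do not give the activity of the pairs, which also depends on phosphorylation and protein turnover.

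The arrays could not be assigned to the cell lines with certainty. Across 39429 probes, the parental column of the authors' normalised table correlated at 0.999998 with the scanner output of the BaF/3 (#BEB1) sample, and at 0.982285 with that of the parental sample. Array A is BaF/3 (#BEB1) according to the table but parental according to the scanner output, and array B is the reverse. Every difference is given on a log2 scale as array A minus array B. A positive value is therefore higher in BaF/3 (#BEB1) if the table is right and higher in the parental cells if the scanner output is right. Olr1, which encodes LOX-1 and was cloned by the study from BaF/3 (#BEB1), was 5.01 higher on array A (32.1-fold). The direction in the authors' table is the one the paper describes for LOX-1 mRNA. That description comes from the study's own microarray, so it is not an independent check of the table.

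Array A had a 75th percentile signal of 1506 and 19480 probes (49.4%) well above background, and array B had 1080 and 19660 probes (49.9%). No spot was saturated. Both arrays lay on the same slide and were scanned together, so the position on the slide and the cell line cannot be told apart. The median SD between the repeated spots of a probe, over 211 probes printed 10 times and well above background at each spot, was 0.06 on array A, 0.05 on array B and 0.05 for their difference. This spread covers a single array and not the differences between cultures. In RNA of a whole culture, fewer cells that express a gene and less RNA per cell cannot be told apart.

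The probes that the account below turns on are given first, from 5′ to 3′. Those of Fosl2 are shown because they differed in direction, and that of Fos because it was read at 10 spots on each array. The first Fosl2 probe is given whole, and the other sequences are the first 30 bases of their probes. They are in lower case throughout, as no stretch within them was singled out.
Fosl2 probe 1 (A_51_P507242): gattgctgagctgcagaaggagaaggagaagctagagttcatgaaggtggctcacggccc
Fosl2 probe 2 (A_55_P1995195): gctatggaggaaagaacatattaaaaactt
Fos (A_52_P262219): ggactttattttccagtagatagaaatcaa
In mm9, the build of the scanner output, the Fosl2 probes lie on the plus strand of chromosome 5, from 32455088 to 32455147 and from 32460076 to 32460135, with their starts 4988 bases apart. The Fos probe lies on the plus strand of chromosome 12, from 86817900 to 86817959. The place of the probes in exons and UTRs was not looked up, since no mm9 annotation was used.

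Of the 9 measured AP-1 genes, 3 were past 2-fold towards array A. They were Fos (1.92), Fosb (1.39) and Fosl1 (1.09), all Fos subunits. None of the 9 was past 2-fold towards array B (0 genes). The Jun subunits, Batf and Maff lay between 0.31 and 0.91, all towards array A, and Fosl2 was at −0.56. Across the 14815 genes measured on both arrays, 3.85% were past 2-fold towards array A and 7.3% towards array B. The AP-1 share was 33.3% on array A, which is 3 genes. A difference above 0 was seen in 8 of 9 AP-1 genes (88.9%), against 48.7% of all measured genes. Their median difference was 0.62, and that of all measured genes was −0.02. These are descriptions of 2 arrays, and no test was made of the family against other genes.

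**Figure D1:**
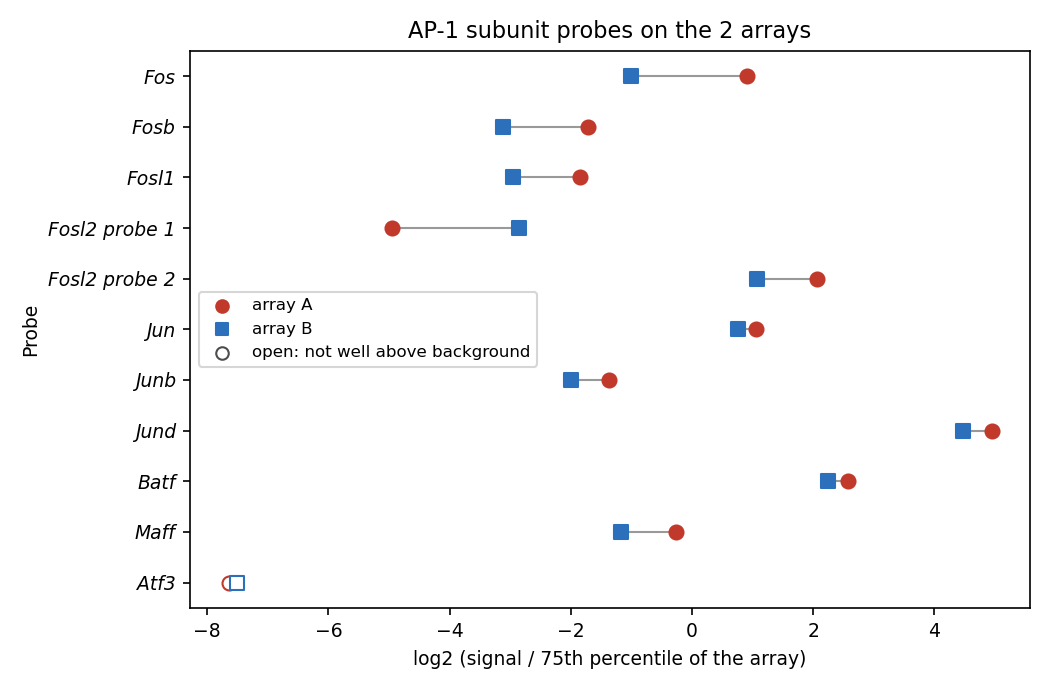
The level of each AP-1 probe on array A (red circles) and array B (blue squares), as log2 of the signal over the array's 75th percentile, with a line joining the 2 arrays. The circle lies to the right of the square for every measured probe but Fosl2 probe 1, Atf3 is drawn open because neither array had it well above background, and levels of different probes are not comparable with each other.

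Fos encodes the founding Fos subunit and was read by 1 probe printed at 10 spots on each array. Its mean signal on array A was 2834, with spots from 2668 to 2988, and 536 on array B, with spots from 510 to 565. The spots of the arrays did not overlap, before or after scaling. As spots of 1 probe lie close together, this needs only a small difference, and the share of other probes for which it held was not counted. Scaled to the 75th percentile, the levels were 0.91 and −1.01, a difference of 1.92 or 3.80-fold. The differences of the 10 spots ran from 1.88 to 2.02 with an SD of 0.05. Fos ranked 91st from the top of the 14815 measured genes in the direction of array A (0.614% of genes were at least as far). At a 3-fold threshold it was the only AP-1 gene left towards array A (1 gene), beside 1.05% of all genes, and 0 were left towards array B, beside 2.25%.

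Batf was the other AP-1 gene with 10 spots and gives a contrast in size. It encodes a factor that lacks a transactivation domain, pairs with Jun proteins and is known for its part in lymphocyte differentiation. Its signals were 8614 to 9370 on array A and 4872 to 5498 on array B. These did not overlap either, before or after scaling, and the share of other probes for which this held was again not counted. The ratio of the arrays' 75th percentiles is itself 1.39 (0.48 on the log2 scale). After scaling, the levels were 2.57 and 2.24, a difference of 0.33 or 1.26-fold, with spots from 0.28 to 0.37. The difference exceeded the SD between spots of 0.03, while 25.4% of all measured genes lay at least as far towards array A.

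**Figure D2:**
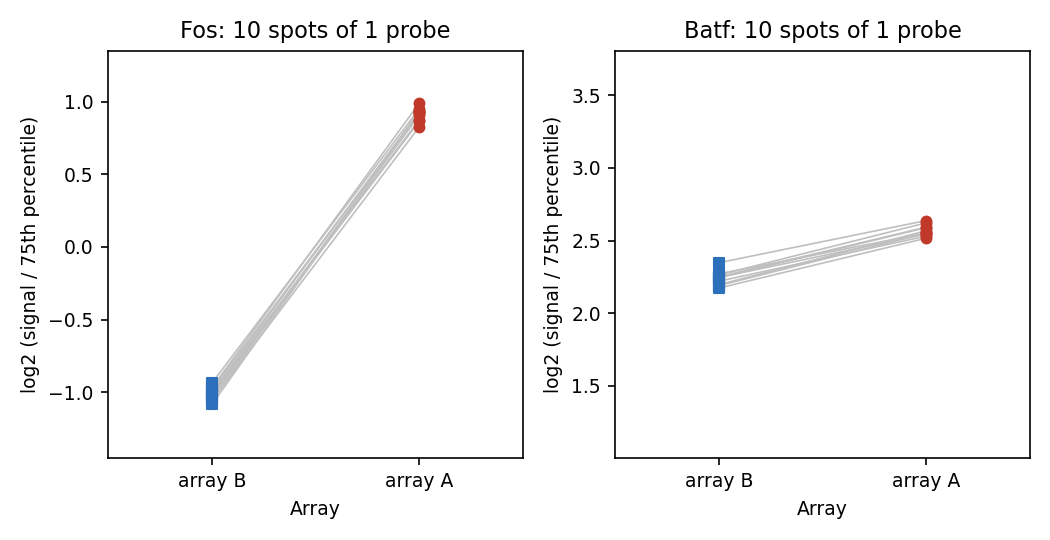
The 10 spots of the Fos probe (left) and of the Batf probe (right) on array B and array A, as log2 of the signal over the 75th percentile, with a line for each spot position and the same height of the vertical axis in both panels. The lines of Fos climb by 1.88 to 2.02 and those of Batf by 0.28 to 0.37, so the spots of 1 gene lie close together beside the difference between the genes.

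Fosb and Fosl1 showed the same direction as Fos. Fosb, an early response subunit, had a signal of 456 on array A and 125 on array B from 1 spot each. Its scaled levels were −1.72 and −3.11, a difference of 1.39 (2.62-fold), and 1.42% of measured genes lay at least as far towards array A. Fosl1 encodes Fra-1, a subunit that appears later than Fos in many cells. It had signals of 417 and 140, scaled levels of −1.85 and −2.95, and a difference of 1.09 (2.14-fold), with 2.96% of genes at least as far. Both lost their place past 2-fold with normexp background correction, where Fosb was at 0.97, Fosl1 at 0.73 and Fos at 1.77. Fos was then the only AP-1 gene past 2-fold towards array A (1 gene), beside 2.6% of all genes, and 0 were past it towards array B, beside 4.77%.

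Fosl2 encodes Fra-2 and was the only AP-1 gene with more than 1 probe. Probe 1 had a signal of 48.5 on array A and 149.8 on array B, which are 1.79 and 6.55 times the dimmest signal that counted as well above background there. Its scaled levels were −4.96 and −2.85, a difference of −2.11, or 4.30-fold higher on array B. Probe 2 had signals of 6274 and 2259, scaled levels of 2.06 and 1.06, and a difference of 0.99, or 1.99-fold higher on array A. The probes of this gene thus pointed in opposite directions, and their mean of −0.56 represents neither of them. The range between them was 3.10, the 2nd largest among the 3152 genes with more than 1 measured probe, whose median range was 0.27. Only 9 of those genes had a range of at least 2 on the log2 scale. Those next to Fosl2 in that order, named after their values were seen, were C130026I21Rik (3.13) and Kazn (2.95).

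The opposite directions of the Fosl2 probes were seen under each scaling and correction tried. Probe 1 was at −1.35 with normexp, −1.81 with each array scaled to its median, −1.87 with quantile scaling, −2.19 with the 75th percentile taken over bright probes alone (those well above background on each array), and −2.08 in the authors' table. Probe 2 was at 0.96, 1.29, 0.94, 0.91 and 1.02 in the same order. With the brightest probe in place of the mean, Fosl2 was at 0.99 and 9 of 9 AP-1 genes lay above 0. Each probe was printed at a single spot, so the spread between spots is not known for either, and whether they read the same transcripts was not tested.

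**Figure D3:**
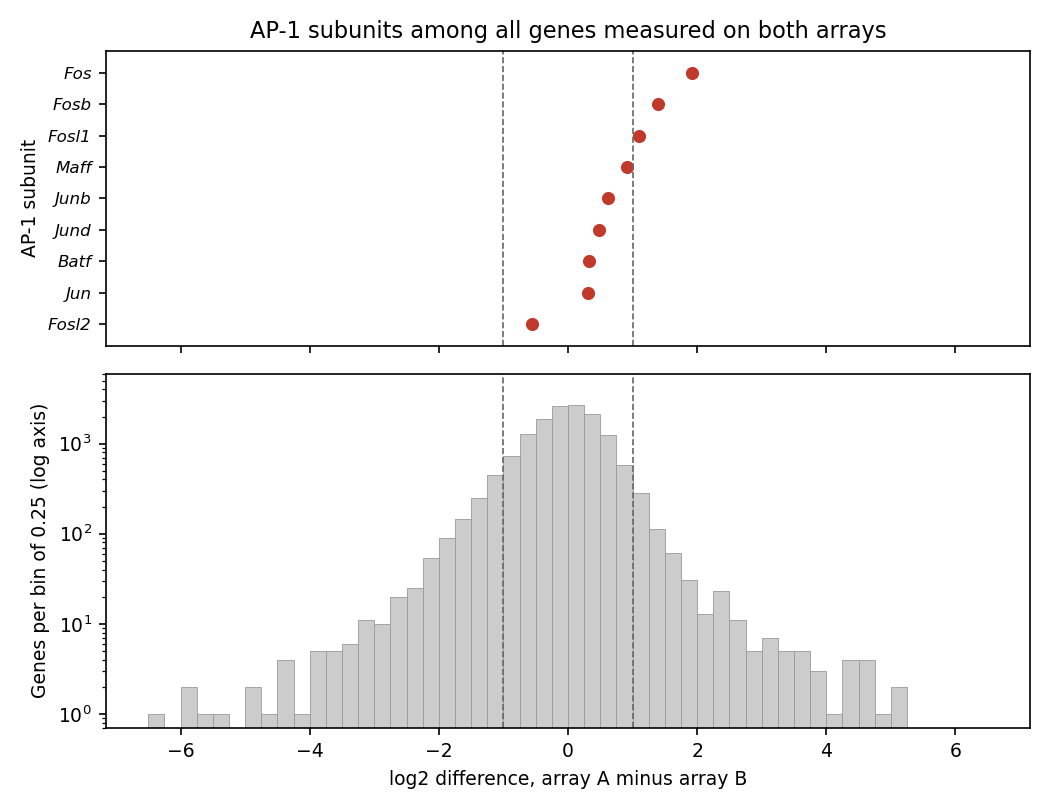
Upper panel, log2 difference between the arrays, A minus B, for the 9 measured AP-1 genes. Lower panel, the number of genes per bin of 0.25 for all 14815 measured genes on a log axis, with dashed lines at 2-fold in both panels. Fos, Fosb and Fosl1 lie beyond the right dashed line, and Fosl2 is the only AP-1 gene left of 0.

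The Jun subunits differed less than the Fos subunits other than Fosl2. Jun, the founding member of its group and a target of JNK, had signals of 3143 on array A and 1824 on array B, scaled levels of 1.06 and 0.76, and a difference of 0.31 (1.24-fold). Jund, which is present in resting cells of many kinds, had signals of 46330 and 23909, scaled levels of 4.94 and 4.47, and a difference of 0.48 (1.39-fold). Junb, an early response gene that is also known to restrain Jun in some settings, had signals of 582 and 272, scaled levels of −1.37 and −1.99, and a difference of 0.62 (1.54-fold). At least as far towards array A lay 26.9% of all measured genes for Jun, 17.5% for Jund and 11.3% for Junb. Each was read by 1 probe at 1 spot, so the differences cannot be set against a spread of their own. None reached 2-fold under any of the scalings, corrections and filters tried (0 of 3), where Jun ran from 0.22 to 0.60, Jund from 0.38 to 0.77 and Junb from 0.42 to 0.91.

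Maff encodes a small Maf protein, which has no transactivation domain of its own. Its signals were 1258 on array A and 481.5 on array B, its scaled levels −0.26 and −1.17, and its difference 0.91 (1.87-fold), just short of 2-fold, with 4.88% of all genes at least as far. Scaled to the median of each array, Maff was at 1.20 and the AP-1 count towards array A was 4 of 9, but this scaling shifts all genes by 0.29 and puts 8.86% of them past 2-fold towards array A and 3.96% towards array B, where the AP-1 count was 0. Atf3, a stress-responsive factor that pairs with Jun proteins, had a signal of 7.51 on array A and 5.95 on array B. Neither was well above background, so no fold is given.

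**Figure D4:**
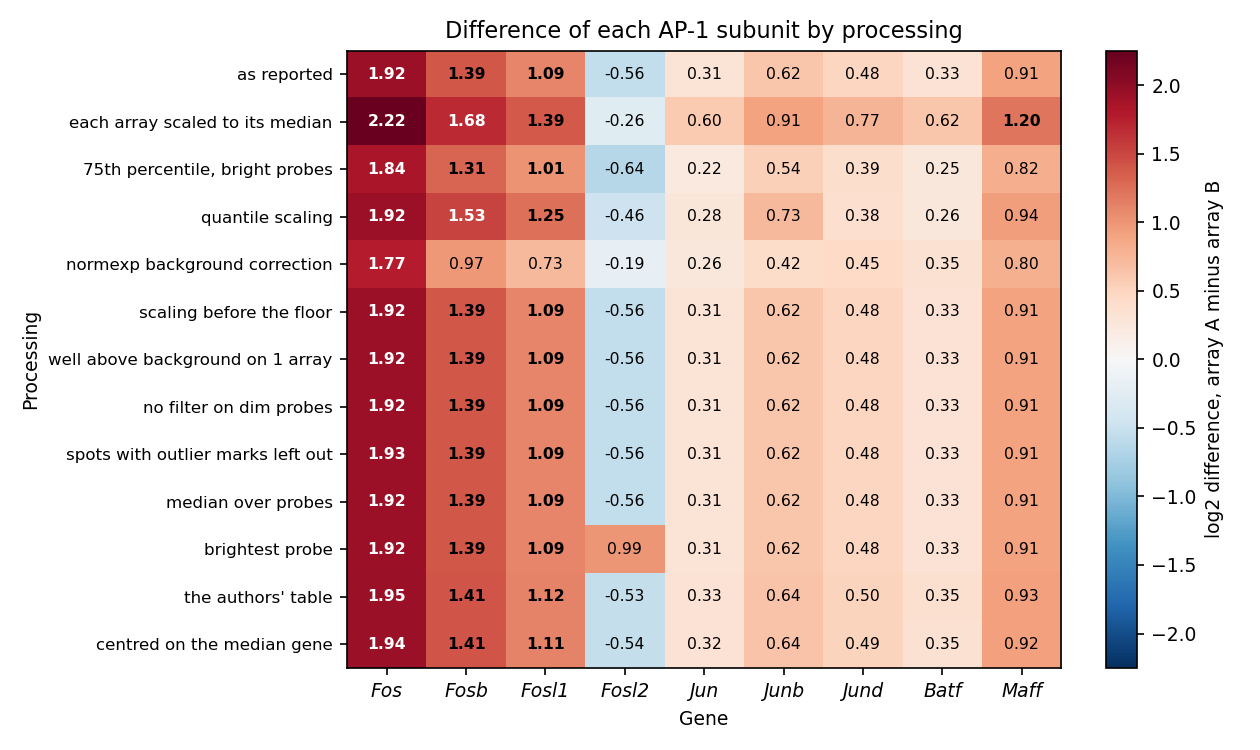
Log2 difference between the arrays, A minus B, for each measured AP-1 gene under the reported processing (top row) and 12 alternatives, with bold figures where the size is at least 2-fold. Fos is bold in every row (1.77 to 2.22), Fosb and Fosl1 lose 2-fold only with normexp background correction, Maff reaches it only with scaling to the median, and Fosl2 changes sign with its brightest probe.

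The promoters of Fos and Jun are known for sites of the CREB and AP-1 types, so the promoters of the family were searched for these letters in RefSeq sequences of GRCm38.p6, from 250 bases before to 50 after each start, on both strands. Promoters of 9 of the 10 genes were found, 11 in all, and that of Fosl1 was not. The AP-1 site TGACTCA, which reads TGAGTCA on the other strand, was in 0 of the 9 genes and in 5.2% of all 32851 promoters. The full CREB site TGACGTCA was in 1 gene, Maff, and in 1.79% of all promoters. Its shorter form TGACGT, which reads ACGTCA on the other strand and overlaps the full site, was in 4 genes, Fos, Maff, Batf and Atf3, and in 7.51% of all promoters. The form TGACATCA, or TGATGTCA on the other strand, was in Jun and Maff, 2 genes, and in 3.62% of all. The shares of all are by promoter, and counted that way the family had 0, 1, 4 and 2 of its 11 promoters with a match, in the same order. The matches are shown as windows of 30 bases with the letters searched for in capitals.
Fos, chr12:85473813-85473842, plus strand, 66 bases before the start: gttccgcccagTGACGTaggaagtccatcc
Batf, chr12:85686611-85686640, plus strand, 98 bases before the start: ttctaacttgtTGACGTttccgcccatgtg
Atf3, chr1:191183323-191183352, minus strand, 8 bases before the start: ttaatagcattACGTCAgcctgggattggt
Jun, chr4:95052249-95052278, minus strand, 45 bases before the start: aagcctcggggTGACATCAtgggctatttt
Maff, chr15:79347480-79347509, plus strand, 29 bases before a start: ggctggggcggTGACGTCActgcatgactg
Maff, chr15:79348346-79348375, plus strand, 45 bases before another start: ctggagccatgTGACATCAgtgtttgttcc
The 5 genes with a match ran from Fos at 1.92 to Jun at 0.31 with Atf3 not well above background, and Fosb at 1.39 had none. A match describes the letters in this window and not the binding of a factor, and these arrays did not measure binding.

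Fos and Batf lie near each other on chromosome 12, with their probes 232 kb apart in mm9 and Jdp2, which encodes another partner of Jun proteins, between them. Jdp2 was at −0.02 (0.27 with scaling to the median). Within 500 kb on either side of the pair, 27 other genes had a probe and 15 were measured on both arrays. Their differences ran from −0.62 to 0.91 with a median of 0.09, and 0 were at least 2-fold apart in either direction, beside 3.85% and 7.3% of all measured genes. With scaling to the median, Ylpm1 (1.20) and Dlst (1.12), 2 of the 15, were past 2-fold towards array A, beside 8.86%. Prox2, Pgf and Zc2hc1c were well above background on array B alone, and no difference was computed for them. This stretch was chosen after the values of Fos and Batf were seen.

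Genes that belong to the pathway by other roles were described by lists. Of 26 other factors with a basic leucine zipper, 20 were measured. Past 2-fold towards array A were 2 of them, Atf6, a membrane-bound sensor of unfolded proteins (1.67), and Ddit3, also called CHOP (1.66), and towards array B 1, Bach1, a repressor that pairs with small Maf proteins (−1.17; −0.88 with scaling to the median). Their median was 0.24. The counts of 2 and 1 stand beside 3.85% and 7.3% of all measured genes. With scaling to the median they were 7 and 0, beside 8.86% and 3.96%.

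The kinases and factors upstream of AP-1, such as Ras, Raf, MEK, ERK, JNK and p38 with the Elk factors and Srf, lay in both directions. Of 32 genes 30 were measured, 0 were past 2-fold towards array A and 1 towards array B, Mrtfa (−1.73, 2 probes), which encodes a coactivator of Srf, beside 3.85% and 7.3% of all measured genes. The median was −0.07, with 12 of 30 above 0. Srf itself was at −0.02, and its direction was towards array A with scaling to the median (0.28) and with normexp (0.02). Of 17 ubiquitin ligases, cofactors and DNA partners of AP-1, 15 were measured and 0 were 2-fold apart in either direction, with a median of 0.10. Irf8, which joins Batf and Jun proteins on DNA, was well above background on array B alone, where it was brighter by at least 4.09-fold. Such a bound is taken against the dim array, at its lowest signal that counted as well above background or at the gene's own signal there, whichever was higher.

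Of 35 genes reported elsewhere as AP-1 targets, 20 were measured, and they lay in both directions. Past 2-fold towards array A were 5, the cytokine genes Il6 (3.29), Il4 (3.14) and Tnf (1.50), Spp1, which encodes osteopontin (3.26), and the activation marker Cd69 (2.58). Past 2-fold towards array B were 4, among them Mmp9, a gelatinase (−1.73), Nqo1, a quinone reductase (−1.49), and Gclm, of glutathione synthesis (−1.17); these and Tnf are named outside the naming rule, after their values were seen. The counts of 5 and 4 stand beside 3.85% and 7.3% of all measured genes. With scaling to the median 5 and 2 genes were past 2-fold, beside 8.86% and 3.96%, Gclm being at −0.88. With normexp the counts were 5 and 3, beside 2.6% and 4.77%. Il5 was well above background on array B alone, where it was brighter by at least 6.70-fold. The median of the list was 0.21, and 14 of the 35 genes, such as Il2, Il13, Csf2 and Mmp13, reached that mark on neither array.

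Of 23 other early response genes, 15 were measured and 13 of these lay above 0, with a median of 0.88. Past 2-fold towards array A were 6, led by Egr2 (4.74), Btg2, an antiproliferative gene (2.46), Tnfaip3, which encodes A20 (1.44; 0.73 with normexp), and Dusp2, a MAP kinase phosphatase (1.40). Klf6 (1.32) and Nfkbia (1.23) were the others, named outside the rule. Gadd45b was the only 1 past 2-fold towards array B (−1.12; −0.83 with scaling to the median). Zfp36, which encodes an RNA decay factor, was well above background on array A alone, where it was brighter by at least 7.23-fold, and Klf4 on array B alone, where it was brighter by at least 1.57-fold. The counts of 6 and 1 stand beside 3.85% and 7.3% of all measured genes. Scaling to the median put 10 genes past 2-fold towards array A and 0 towards array B, beside 8.86% and 3.96%. On neither array were Egr1, Egr3 and Egr4 well above background. Heat shock genes, which answer culture stress, had 6 measured of 10 listed, 0 at least 2-fold apart and a median of −0.02, with Hspa8 at −0.39 and Hspe1 at 0.47. Hspa1a, Hspb1 and Bag3 were well above background on neither array and Hspa1b had no probe, so the list was read without them.

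**Figure D5:**
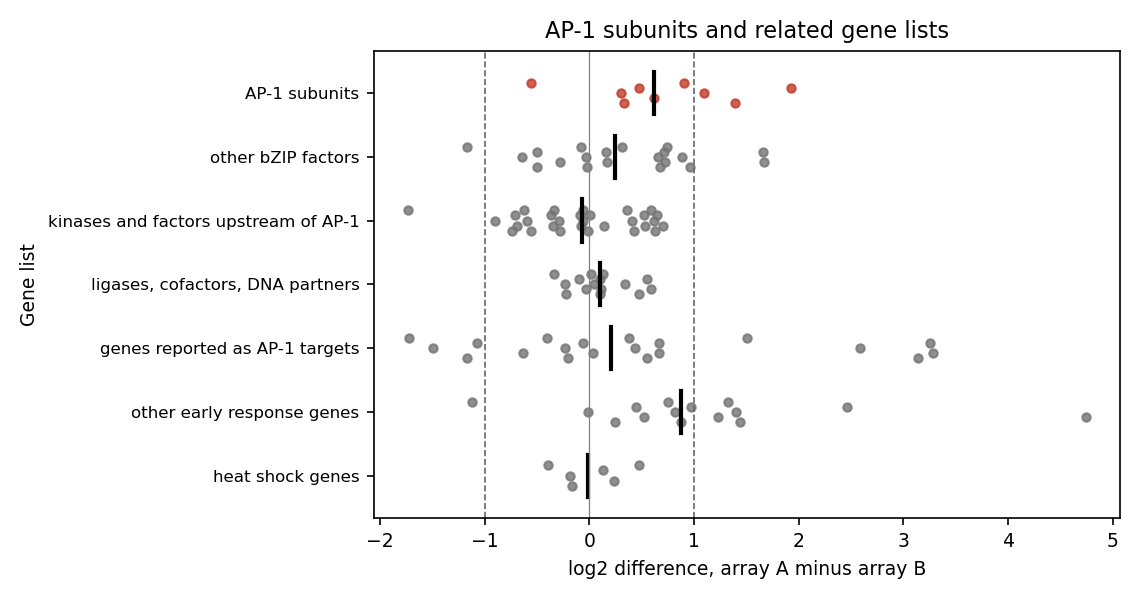
Log2 difference between the arrays, A minus B, for every measured gene in the AP-1 family (red) and in 6 related gene lists (grey), 1 point a gene, with black bars at the list medians and dashed lines at 2-fold. The medians are 0.62 for AP-1 and 0.88 for other early response genes, and lie between −0.07 and 0.24 for the other lists.

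Markers of blood cell types also differed between the arrays, and their part in the AP-1 differences was not tested. Of 17 listed pro-B and Ba/F3 genes, 16 had a probe and 6 were measured. Past 2-fold towards array B were 4 of these, Cd79b (−2.30), Csf2rb (−1.86), Csf2rb2 (−1.60) and Vpreb1 (−1.39; −0.94 with normexp). Il3ra was at 0.40 and Ptprc at 0.75 (1.04 with scaling to the median). Cd79a, Pax5, Ebf1, Rag1, Rag2, Dntt, Il7r, Cd24a and Kit were well above background on neither array, so the name pro-B rests on the origin of the line. The levels of the measured pro-B and Ba/F3 genes, as signal over the 75th percentile, summed to 50.7 and 115 on arrays A and B. The same sums were 0.739 and 20.0 for neutrophil markers (6 of 8 measured), 0.140 and 5.11 for mast cell and basophil markers (2 of 8), 1.80 and 1.38 for macrophage markers (4 of 9) and 4.72 and 4.08 for T and NK cell markers (5 of 9). Such a sum adds probes of unlike brightness and is led by the brightest. On array B, Csf2rb2 (log2 level 6.06) and Csf2rb (5.08) led the pro-B and Ba/F3 sum, S100a9 (4.14) that of neutrophils and Cpa3 (2.29) that of mast cells. Markers past 2-fold towards array B were 4 of the pro-B and Ba/F3 list, 5 of neutrophils, 2 of mast cells and 1 of macrophages, beside 7.3% of all measured genes. The macrophage marker was Cd68 (−1.26; −0.87 with normexp and −0.97 with scaling to the median). In the direction of array A it was 1, the T cell marker Cd3d (1.27; 0.60 with normexp), beside 3.85%. Elane, the other measured neutrophil marker, was at 0.10. The macrophage list had a median of −0.21, with Adgre1 at 0.90, and the T and NK cell list one of 0.22. S100a8 and Fcer1a were well above background on array B alone, at least 184-fold and 46.6-fold higher, and so were Lyz2 of macrophages (at least 1.80-fold), Zap70 (at least 4.91-fold) and Cd3g (at least 1.50-fold) of T cells. Among defining markers, Cd14, Mrc1, Msr1 and Marco of macrophages, Camp of neutrophils and Cd8a of T cells were well above background on neither array. The same held for Ms4a2, Mcpt8, Tpsb2, Tpsab1 and Mcpt4, 5 of the 8 mast cell and basophil markers, and for Ncr1 of NK cells.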

How the data were processed

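The authors quantified each array with Agilent Feature Extraction 9.5.1.1 (version per the submitters' processing notes) and deposited background-subtracted spot intensity, in which spots near background carry a surrogate value. The log2 values of the table the authors deposited came from GeneSpring GX, with a floor of 1.0 and division by the 75th percentile of the array.

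Here the intensity of the 43020 non-control spots of 44397 features was floored at 1.0 (the lowest were 5.27 and 4.51), divided by the 75th percentile, put on a log2 scale and averaged over the spots of a probe. A probe was well above background where at least 50% of its spots were marked so. A gene took the mean of its probes well above background on both arrays, since 9 AP-1 genes have 1 probe and 1 has 2. The lowest such signals, used for bounds, were 27.1 and 22.9. Probes were named through a RefSeq table of GRCm38.p6 (26055 by accession, 3195 by symbol, 930 by older symbol; 9249 kept the file's name). Probe coordinates are in mm9 as deposited.

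The AP-1 genes, the 11 gene lists and the naming rule (each AP-1 gene, Olr1, and up to 4 genes per list with the largest differences past 2-fold) were chosen with earlier results of these data known. Some genes of the lists are counted but not reported here by name. With 1 array per cell line no test could be made. The steps were run on simulated arrays, where 200 of 200 changed genes (a difference of 1.5) and 0 of 15528 unchanged genes passed 2-fold. The changed genes were drawn from those brighter than Fosb and Fosl1 were on array B, with noise close to the spread between spots. That outcome was therefore fixed by the settings, which left out dim changed genes and differences between cultures. Alternatives were other scalings, normexp (offset 50), other filters on dim probes, the order of floor and scaling, outlier spots left out, other summaries over probes, the authors' table and a 3-fold threshold. Python 3.11.15, numpy 2.4.6, pandas 2.3.3, matplotlib 3.10.9, R 4.3.3 and limma 3.58.1 were used. Precision is limited by there being 1 array per cell line.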

Additional observations from a re-analysis of the deposited data

How the results depend on the processing

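The AP-1 count at least 2-fold higher on array A was 3 as reported, beside 3.85% of all measured genes, 1 (Fos) with normexp background correction, beside 2.6%, 1 (Fos) at a 3-fold threshold, beside 1.05%, and 4 with scaling to the median, beside 8.86%. It was 3 under each of the other alternatives, where that share ran from 3.06% to 6.86%. The count towards array B was 0 under each of them, beside 2.25% at a 3-fold threshold and 3.96% to 11.4% otherwise. The median difference of the measured AP-1 genes, 0.62 as reported, was 0.91 with scaling to the median, 0.54 with the 75th percentile over bright probes alone, 0.73 with quantile scaling, 0.45 with normexp, 0.55 with no filter on dim probes (which adds Atf3 and shifts the median of all genes by −0.14) and 0.91 with the brightest probe of each gene. By construction, scaling to the median adds 0.29 to every gene, and the 75th percentile over bright probes alone adds −0.08. With the brightest probe, Fosl2 was the only AP-1 gene whose value changed. The cause of the shifts with quantile scaling and normexp was not tested. Over 12 alternatives for each of 9 genes, 76 differences stayed close to the reported value and 32 moved by more than the spread between spots. Many of the 76 could not move. The order of floor and scaling and the filters on dim probes left these genes as they were, as did the summaries over probes for genes with 1 probe. The count of 76 is therefore not a measure of stability. None that was past 2-fold changed sign (0 cases), and Fosl2 changed sign with its brightest probe (0.99). Centring on the median of all measured genes was added after the data were seen. Placing AP-1 genes at a bound gave no value, as none of them was well above background on a single array. No paired analysis was possible because each cell line has 1 array, and for the same reason no replicate could be left out.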
